A study of Mus musculus with 12 samples.

Results

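Dlk1 (Delta-like homolog 1) and 36 other known imprinted genes were followed in brain RNA of stressed and unstressed mice given krill oil or water. The 37 genes were taken by their symbols from a list of genes known to be imprinted in the mouse, out of the 55385 genes in the deposited table, with earlier results of these data known. Of these, 36 had a mean FPKM (a level per length of transcript, scaled to the mapped fragments of each library) of 0.1 or more over the 12 libraries and were tested among the 21393 genes that passed this filter. Phlda2 did not pass and was listed at an FPKM of 0.0001, the value given to genes without an estimate, in 11 libraries and at 0.229 in MS_W75.

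All mice were wild-type C57/BL6J males, 8 weeks old when bought, and 3 mice per group gave 1 library of poly(A) RNA each. C_W mice were unstressed and received water, and C_O mice were unstressed and received krill oil by gavage at 200 mg/kg per day. MS_W mice went through chronic unpredictable mild stress (CUMS) for 4 weeks and received water, while MS_O mice went through the same CUMS and received the same krill oil. The water groups received no other oil, so krill oil was compared with water only. The design asks what CUMS changed in the brain, and whether it changed the same genes when krill oil was given. Libraries are named by group and mouse number, such as MS_W95.

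An imprinted gene is expressed mainly from the chromosome inherited from the mother or mainly from that inherited from the father, because DNA methylation set in the egg or sperm marks a control region nearby. Imprinted genes lie in clusters in which protein-coding genes and long non-coding RNAs of opposite parental origin share such a region. Many act on growth, placenta and metabolism, and in the brain several are known for their expression in the hypothalamus and for roles in feeding, hormone release and social behaviour. The parental alleles named below are background, since the mice were of an inbred strain and no allele was measured here.

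Peg10, Asb4, Dlk1, Magel2 and Zim1 were the 5 members with the smallest p between C_W and MS_W. The windows around the starts of the 4 of them that had one are shown first, because imprinted promoters are often rich in CpG dinucleotides, the bases that DNA methylation marks. The sequences are RefSeq promoter windows on GRCm38.p6, from 250 bases before to 50 bases after the start, written 5′ to 3′ on the strand of the gene, with each CG in capitals. The window of Dlk1 lies at chr12:109452573-109452872 on the plus strand, that of Magel2 at chr7:62376729-62377028 on the plus strand, that of Zim1 at chr7:6696383-6696682 on the minus strand and that of Asb4 at chr6:5383136-5383435 on the plus strand.
Dlk1: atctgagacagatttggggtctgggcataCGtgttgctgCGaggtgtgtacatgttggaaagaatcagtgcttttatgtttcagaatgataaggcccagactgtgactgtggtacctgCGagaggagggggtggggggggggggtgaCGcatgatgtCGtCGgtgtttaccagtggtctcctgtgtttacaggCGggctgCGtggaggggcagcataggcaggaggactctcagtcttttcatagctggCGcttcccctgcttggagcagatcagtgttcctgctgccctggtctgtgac
Magel2: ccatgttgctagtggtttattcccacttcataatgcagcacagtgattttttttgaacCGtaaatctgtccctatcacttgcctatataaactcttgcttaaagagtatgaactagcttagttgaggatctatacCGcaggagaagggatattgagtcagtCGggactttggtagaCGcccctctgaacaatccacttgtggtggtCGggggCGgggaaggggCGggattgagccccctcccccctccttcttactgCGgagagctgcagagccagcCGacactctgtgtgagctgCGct
Zim1: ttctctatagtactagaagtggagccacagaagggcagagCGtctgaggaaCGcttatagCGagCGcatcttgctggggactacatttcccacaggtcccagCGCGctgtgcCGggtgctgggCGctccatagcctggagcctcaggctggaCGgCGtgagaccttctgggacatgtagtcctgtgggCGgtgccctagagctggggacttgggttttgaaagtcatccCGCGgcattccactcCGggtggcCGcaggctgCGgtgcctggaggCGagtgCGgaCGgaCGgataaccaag
Asb4: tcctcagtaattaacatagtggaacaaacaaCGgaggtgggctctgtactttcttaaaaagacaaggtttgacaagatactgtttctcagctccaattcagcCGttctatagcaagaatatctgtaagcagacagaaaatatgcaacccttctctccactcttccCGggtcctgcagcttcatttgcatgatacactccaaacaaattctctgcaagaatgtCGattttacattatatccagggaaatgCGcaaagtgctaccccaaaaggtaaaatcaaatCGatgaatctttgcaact

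These windows held 9 CG in Dlk1, 10 in Magel2, 20 in Zim1 and 6 in Asb4, and their GC content was 55.7%, 51%, 61.7% and 40.3%. Among the 37 genes, 29 had a window. The others were Cdkn1c, H19, Impact, Peg10, Peg13, Rtl1, Sgce and Trappc9. Taking the window nearest to each gene's start, 21 of the 29 (72.4%) held at least 10 CG, and the median was 15. Of all 32851 windows of the same length, which came from 27025 genes, 43.5% held at least 10 and the median was 7. Counted over all windows in the same way, 30 of the 45 windows of the 29 genes (66.7%) held at least 10. The nearest window could lie far from the start in the deposited table, as for Plagl1 at 30328 bases. The motif TGCCGC, the core recognised by the zinc finger protein ZFP57 when methylated, was searched on both strands. It was found in 6 of the 29 nearest windows (20.7%), in 11 of the 45 (24.4%) and in 11.6% of all windows. Of the 4 sequences above only that of Zim1 held it. CpG content therefore varied from the sparse window of Asb4 to the dense window of Zim1 among genes that showed a similar order of the groups.

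Estimated counts summed to between 50912906 and 75678721 per library. Markers of neurons (Snap25, Syt1, Rbfox3, Tubb3) and of glia (Mbp, Gfap, Aqp4) were above 0.0001 in every library, so the label of brain was met. The study describes the tissue as whole brain. The C_W libraries were deeper (at least 69768244) than the MS_W libraries (at most 61608502), a difference that FPKM divides out. In 2 libraries, C_O72 and MS_W95, the profile was unlike that of the remaining 10. Pearson's r of log2(FPKM + 1) across genes, which are not independent replicates, was 0.97 for this pair, 0.937 or less where it was matched with any of the 10, and 0.959 or more within the 10. All 14 markers of the hindbrain, mostly Hox genes, were above 0.0001 in both, with a summed FPKM of 93.5 in C_O72 and 34.9 in MS_W95, while the sum was at most 0.0982 elsewhere. The 8 cerebellar markers summed to 275 in C_O72 and 934 in MS_W95, and to between 6.76 and 27.3 in the other libraries. Pcp2, a marker of Purkinje cells, was at 31.3 and 114 in this pair and at most 0.212 elsewhere, and Gabra6, a marker of granule cells, was at 23.9 and 91.3 and at most 0.129 elsewhere. Pcp2, Gabra6 and the hindbrain markers were thus at or near 0 in 10 libraries, which goes against a whole brain there. Cbln3, Fat2 and En2 were also near 0 in these 10 libraries, at most 0.196, 0.114 and 0.262. The remaining cerebellar markers were not near 0 in them, with Cbln1 at up to 13.95 (MS_O78), Zic1 at up to 11.5 (MS_O46) and Car8 at up to 2.40 (C_O15). Whether the same part of the brain was taken from each mouse was not tested. Results are therefore given with and without C_O72 and MS_W95.

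The levels of the imprinted genes spanned several orders of magnitude. Snrpn, which encodes a spliceosome protein and is the paternally expressed centre of the region deleted in Prader-Willi syndrome, was the most abundant at a mean FPKM of 368 over the 12 libraries. It was followed by Nap1l5, a nucleosome assembly protein-like gene, at 154.8, Gnas, which encodes the stimulatory G protein alpha subunit, at 93.9, Peg13, a non-coding RNA, at 93.7, and Meg3, the maternally expressed non-coding RNA of the Dlk1 domain, at 80.3. At the other end, Dio3, Asb4, Kcnq1ot1 and H19 had means between 0.176 and 0.459. Some neighbours in this order did not differ beyond their spread. In C_W, Meg3 (95.1 ± 22.1, SD, n = 3) overlapped both Peg13 (94.8 ± 2.27) and Gnas (84.6 ± 6.53), whereas the highest Gnas value (91.4) was below the lowest of Peg13 (92.2). In the other 3 groups Gnas and Peg13 overlapped. Ube3a, the ubiquitin ligase gene of Angelman syndrome, was listed at only 0.576 to 2.12. Its exons overlap antisense transcripts, so this level is uncertain.

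**Figure D1:**
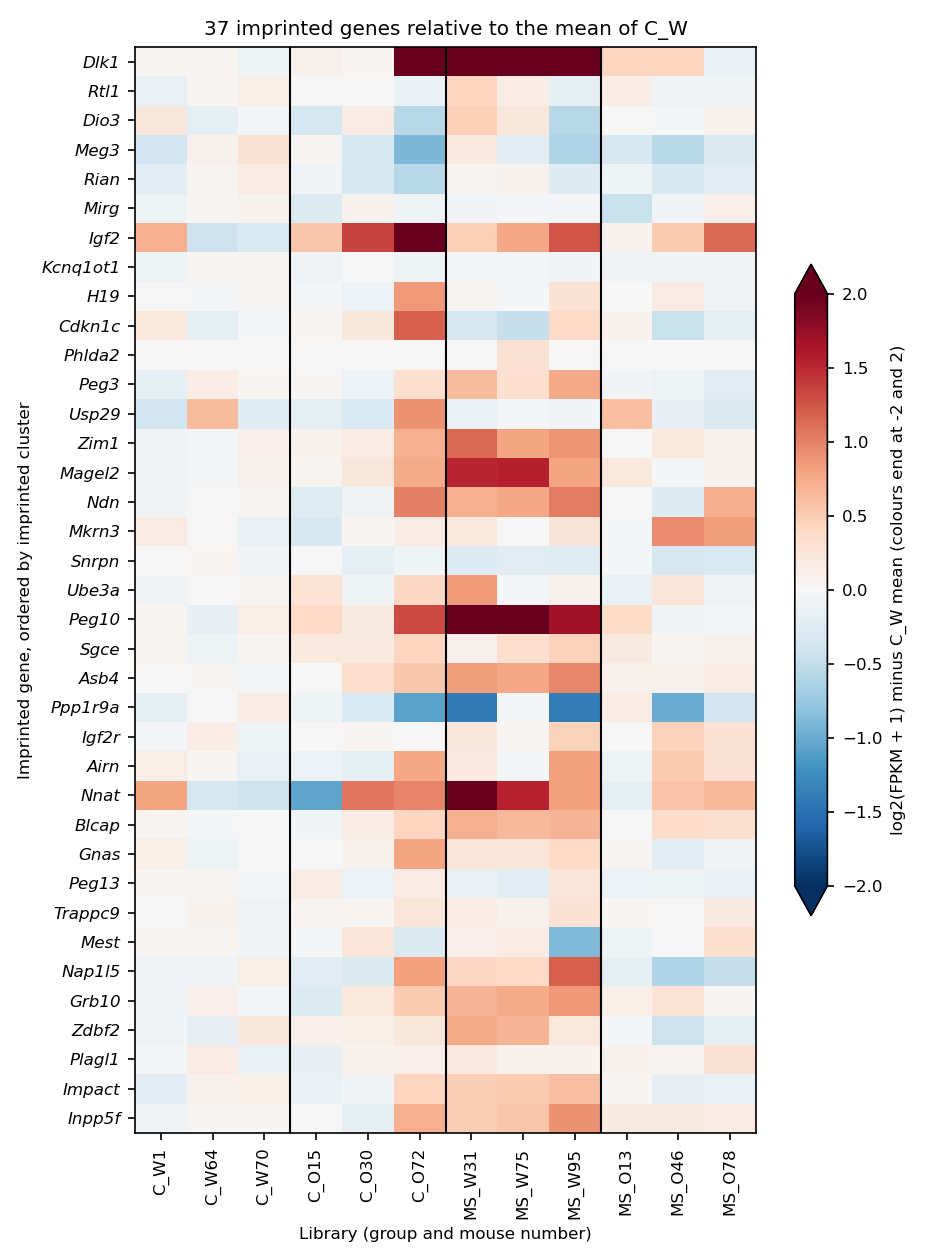
Each row is 1 of the 37 imprinted genes and each column 1 library, and the colour gives log2(FPKM + 1) minus the mean of the C_W group. Dlk1, Peg10, Magel2, Zim1 and Asb4 are red in the 3 MS_W libraries and, less so, in C_O72, while most other rows stay pale in every library.

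In the C_W vs. MS_W comparison, which asks for the effect of CUMS without krill oil, 6 of the 36 genes were differentially expressed genes (DEGs), all higher in MS_W. A DEG here had an unadjusted limma p under 0.05 and a ratio of group mean FPKM above 2 on either side (log2 ratio beyond 1), as the criteria of the study were. These genes were Dlk1, Peg10, Magel2, Zim1, Asb4 and Nnat. They made up 16.7% of the members, whereas 4.59% of all genes tested were DEGs in either direction and 2.5% were higher. The median log2 fold change (log2FC, the difference of group means on the log2(FPKM + 1) scale) was 0.29 over the members and 0.06 over all genes tested. After Benjamini-Hochberg adjustment over all genes, 0 members passed 0.05 in limma (0.00467% of all genes, which is 1 gene, did). At an unadjusted limma p under 0.05, 15 were higher and 1 lower (6.71% and 3.79% of all genes). At the adjusted threshold edgeR on the estimated counts passed 0 members and DESeq2 6 (Zim1, Magel2, Peg10, Asb4, Blcap and Grb10), with no p for Dlk1. The shares of all genes that edgeR and DESeq2 passed are not given here or below, so their counts are not read against a background. Centring each library on its median moved the split of all DEGs from 534 higher and 449 lower to 309 higher and 717 lower, and the members were 6 higher and 0 lower under both scalings.

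Dlk1, on chromosome 12 (109452823 to 109463336, plus strand, mm10), encodes a transmembrane protein of the Notch ligand family that restrains fat cell differentiation and is expressed from the paternal allele. It was listed at 0.229, 0.220 and 0.111 FPKM in C_W1, C_W64 and C_W70, and at 9.46, 9.72 and 8.67 in MS_W31, MS_W75 and MS_W95. In the krill oil groups it was at 0.253, 0.221 and 4.08 in C_O15, C_O30 and C_O72, and at 0.603, 0.588 and 0.0823 in MS_O13, MS_O46 and MS_O78. The 3 MS_W mice were thus above all 9 others, and C_O72 stood between them and the rest. Estimated counts of Dlk1 were 54 to 111 in C_W and 3197 to 3438 in MS_W. The ratio of group means was 49.7, with a log2FC of 3.12 ± 0.45 (SE) and an adjusted p of 0.0606 in limma.

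The other genes of the Dlk1-Dio3 domain did not share this order. Meg3, which starts 88178 bases downstream of Dlk1 on the same strand, was at 71.4, 98.6 and 115 in C_W, at 94.6, 72.7 and 49.5 in C_O, at 106, 80.4 and 60.9 in MS_W, and at 74.3, 62.9 and 76.3 in MS_O, with the libraries in the order given above. Rian, a non-coding RNA that hosts small nucleolar RNAs, was at 9.95, 12.1 and 13 in C_W, at 11.2, 8.90 and 7.58 in C_O, at 12, 12.2 and 9.55 in MS_W, and at 10.9, 9.17 and 9.93 in MS_O. Groups overlapped for both genes in C_W vs. MS_W, with log2FC of -0.21 ± 0.27 and -0.05 ± 0.15. Mirg, a non-coding RNA that hosts microRNAs, was at 2.03, 2.28 and 2.41 in C_W, at 1.68, 2.39 and 2.06 in C_O, at 2.12, 2.19 and 2.19 in MS_W, and at 1.37, 2.07 and 2.48 in MS_O.

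Rtl1, a gene derived from a retrotransposon that is needed in the placenta, was at 0.945, 1.20 and 1.32 in C_W, at 1.13, 1.17 and 0.960 in C_O, at 1.91, 1.37 and 0.893 in MS_W, and at 1.38, 1.05 and 1.06 in MS_O. Dio3, which encodes the deiodinase that inactivates thyroid hormone, was at 0.731, 0.300 and 0.430 in C_W, at 0.163, 0.656 and 0.0001 in C_O, at 1.04, 0.722 and 0.0001 in MS_W, and at 0.463, 0.443 and 0.555 in MS_O. The 0.0001 values of Dio3 fell in C_O72 and MS_W95, the libraries in which Dlk1 was high together with the hindbrain markers. Within the domain, only Dlk1 was a DEG in any of the 4 comparisons, and the smallest unadjusted p of the other 5 genes was 0.0642, for Rian in C_W vs. C_O.

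**Figure D2:**
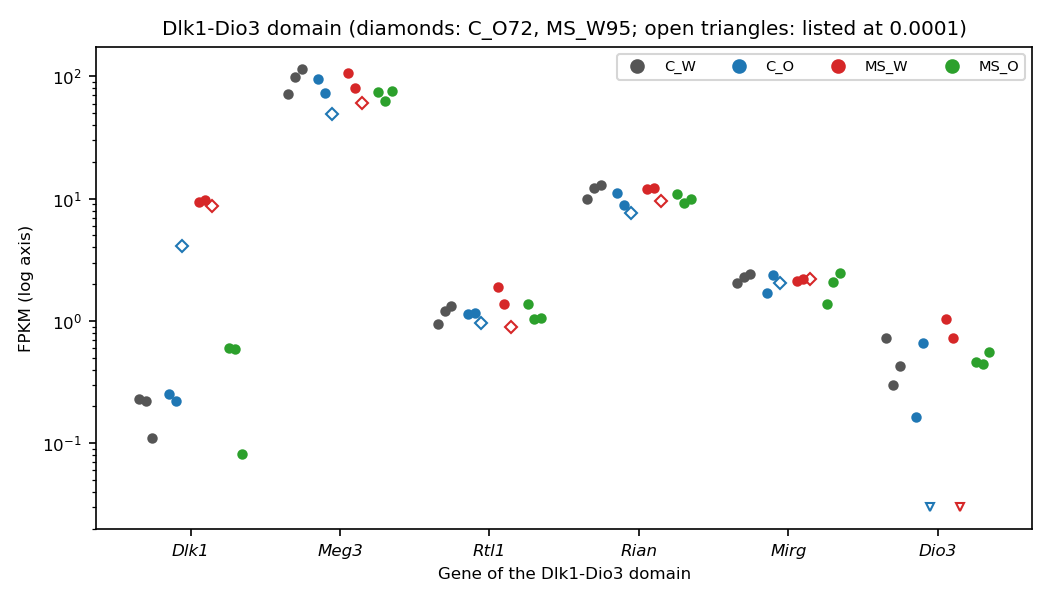
FPKM of the 6 genes of the Dlk1-Dio3 domain in each of the 12 mice, on a log axis, with colours for the groups, open diamonds for C_O72 and MS_W95 and open triangles at the foot for values listed at 0.0001. Dlk1 is at 8.67 to 9.72 in MS_W and 4.08 in C_O72 and below 1 in the other libraries, while the 4 groups of Meg3, Rian, Mirg and Rtl1 overlap.

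In the Peg10 domain of chromosome 6, Peg10 and Asb4 were DEGs in C_W vs. MS_W. Peg10, a paternally expressed gene derived from a retrotransposon whose protein forms virus-like particles, was at 2.38, 1.93 and 2.59 in C_W, at 3.33, 2.73 and 7.20 in C_O, at 12.4, 13.8 and 9.52 in MS_W, and at 3.26, 2.18 and 2.24 in MS_O. Every MS_W mouse was above every other mouse, and C_O72 was next. The ratio of means was 5.18, with a log2FC of 1.96 ± 0.27 and an adjusted p of 0.0606 in limma. Asb4, which encodes an ankyrin repeat protein of ubiquitin ligase complexes and is maternally expressed, was at 0.0311, 0.0485 and 0.0001 in C_W, at 0.0241, 0.292 and 0.491 in C_O, at 0.832, 0.761 and 0.989 in MS_W, and at 0.0927, 0.0817 and 0.133 in MS_O. Its estimated counts were at most 16 in C_W and 174 to 271 in MS_W, so the ratio of means (32.4) is poorly fixed from below, while the groups were clearly separate (log2FC 0.86 ± 0.12, adjusted p 0.0606 in limma).

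Sgce, which encodes epsilon-sarcoglycan, starts 99 bases from Peg10 on the opposite strand and shares its paternal expression. It was at 2.11, 1.83 and 2.07 in C_W, at 2.42, 2.42 and 3.04 in C_O, at 2.19, 2.76 and 3.14 in MS_W, and at 2.41, 2.11 and 2.20 in MS_O. The MS_W mice were above the C_W mice, but the ratio of means was 1.35 (log2FC 0.29 ± 0.12), against 5.18 for its neighbour. Ppp1r9a, which encodes the actin-binding protein neurabin I, was the only member lower in MS_W at an unadjusted p under 0.05 (ratio 0.546, log2FC -0.95 ± 0.40, adjusted p 0.46 in limma). It ranged from 13.5 to 17.5 in C_W and from 5.22 to 14.9 in MS_W, and the groups overlapped.

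In the Prader-Willi homologous region of central chromosome 7, Magel2 was a DEG in C_W vs. MS_W. Magel2, a MAGE family gene involved in the recycling of endosomal proteins, was at 0.164, 0.179 and 0.285 in C_W, at 0.254, 0.413 and 1.01 in C_O, at 2.49, 2.53 and 1.08 in MS_W, and at 0.398, 0.187 and 0.266 in MS_O. MS_W was above all other mice, although MS_W95 was only just above C_O72. The ratio of means was 9.71 (log2FC 1.29 ± 0.22, adjusted p 0.112 in limma). Its neighbour Ndn, 30441 bases away and a MAGE family gene of differentiated neurons, ranged from 30.4 to 32.6 in C_W and from 52.4 to 65.5 in MS_W (ratio 1.82, adjusted p 0.415 in limma), and did not meet the ratio for a DEG. In MS_O78, Ndn was at 53.2 and in C_O72 at 64.5, so values in the range of MS_W were also found outside that group.

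Mkrn3, a ubiquitin ligase gene that delays puberty, had another order. It was at 0.694, 0.497 and 0.354 in C_W, at 0.211, 0.537 and 0.682 in C_O, at 0.748, 0.505 and 0.812 in MS_W, and at 0.470, 1.89 and 1.69 in MS_O. Snrpn was the only member whose MS_W mice were all below the C_W mice (343 ± 5.94 against 404 ± 12, SD, n = 3), with an adjusted p of 0.50 in limma. Non-overlap of this kind was found for 8.22% of all genes in that direction. Magel2 and Ndn, Mkrn3, and Snrpn therefore differed in the group that was highest or lowest.

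In the Peg3 domain of proximal chromosome 7, Zim1, a maternally expressed zinc finger gene, was a DEG. It was at 0.224, 0.263 and 0.379 in C_W, at 0.346, 0.450 and 1.11 in C_O, at 1.84, 1.22 and 1.38 in MS_W, and at 0.295, 0.496 and 0.349 in MS_O. MS_W was above all other mice, with C_O72 next (ratio 5.13, log2FC 0.94 ± 0.16, adjusted p 0.121 in limma). Peg3, a paternally expressed zinc finger gene that affects maternal care, was at 15.8, 20.2 and 18.5 in C_W, at 18.4, 16.5 and 22.9 in C_O, at 28.5, 23.2 and 31.1 in MS_W, and at 17.4, 16.8 and 15.5 in MS_O. Its MS_W mice were also above all others, but the ratio was 1.52 (log2FC 0.57 ± 0.15, adjusted p 0.278 in limma). Usp29, which starts 157 bases from Peg3 on the opposite strand, ranged from 0.106 to 1.25 in C_W alone and showed no such order.

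On chromosome 2, Nnat (neuronatin, a small membrane protein of neurons and hormone-secreting cells) lies in an intron of Blcap. Nnat was at 20.8, 8.94 and 8.37 in C_W, at 5.10, 25.7 and 23.8 in C_O, at 63.4, 35.9 and 21.4 in MS_W, and at 10.1, 17.8 and 18.9 in MS_O. The lowest MS_W mouse was barely above the highest C_W mouse, and the spread within MS_W was wide (ratio 3.17, log2FC 1.57 ± 0.59, adjusted p 0.411 in limma). The DEG call of Nnat ended without C_W64, C_W70 or MS_W31. Blcap, the bladder cancer associated protein gene, was at 25.7, 24.3 and 25.3 in C_W, at 24.1, 28.1 and 34.1 in C_O, at 41.7, 40.1 and 40.7 in MS_W, and at 25.0, 32.5 and 31.5 in MS_O. Its MS_W values were tight and above all other mice, at a ratio of 1.63 (log2FC 0.68 ± 0.13, adjusted p 0.167 in limma). Gnas was at 91.4, 78.4 and 84.0 in C_W, at 85.1, 88.6 and 147 in C_O, at 100.1, 99.97 and 112 in MS_W, and at 87.4, 72.3 and 80.5 in MS_O, so that C_O72 and not an MS_W mouse was highest.

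Of the members outside these clusters, 5 more had an unadjusted p under 0.05 in C_W vs. MS_W without reaching the ratio for a DEG. Nap1l5 was at 129, 131 and 148 in C_W, at 118, 111 and 241 in C_O, at 182, 180.1 and 311 in MS_W, and at 119, 89.2 and 97.8 in MS_O. Zdbf2, a zinc finger gene whose loss reduces feeding in pups, was at 1.07, 0.933 and 1.53 in C_W, at 1.31, 1.33 and 1.54 in C_O, at 2.64, 2.47 and 1.5 in MS_W, and at 1.12, 0.598 and 0.884 in MS_O. Nap1l5 was thus highest in the libraries that stood apart, whereas Zdbf2 was highest in MS_W31 and MS_W75, with MS_W95 inside the range of C_W.

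Grb10, an adaptor that dampens insulin and growth factor signalling and is paternally expressed in the brain, was at 4.26, 4.89 and 4.40 in C_W, at 3.57, 5.41 and 6.88 in C_O, at 7.85, 8.24 and 9.02 in MS_W, and at 4.98, 5.63 and 4.67 in MS_O. Impact, a regulator of protein synthesis under amino acid shortage, was at 35.8, 44.0 and 45.1 in C_W, at 37.9, 39.4 and 56.2 in C_O, at 58.8, 60.1 and 63.7 in MS_W, and at 42.1, 37.1 and 37.6 in MS_O. Inpp5f, which encodes an inositol phosphatase, was at 10.9, 11.5 and 11.6 in C_W, at 11.3, 9.88 and 19.1 in C_O, at 16.3, 17.1 and 21.9 in MS_W, and at 12.9, 13 and 12.8 in MS_O. For Grb10 and Impact the MS_W mice were above all 9 others, at ratios to C_W of 1.85 and 1.46, and for Inpp5f C_O72 exceeded MS_W31 and MS_W75. In all, every MS_W mouse was above every other mouse for 9 of the 36 genes (Dlk1, Peg3, Zim1, Magel2, Peg10, Asb4, Blcap, Grb10 and Impact), against 1.29% of all genes tested. MS_W and C_W did not overlap for 16 members that were higher in MS_W, against 16.3% of all genes.

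**Figure D3:**
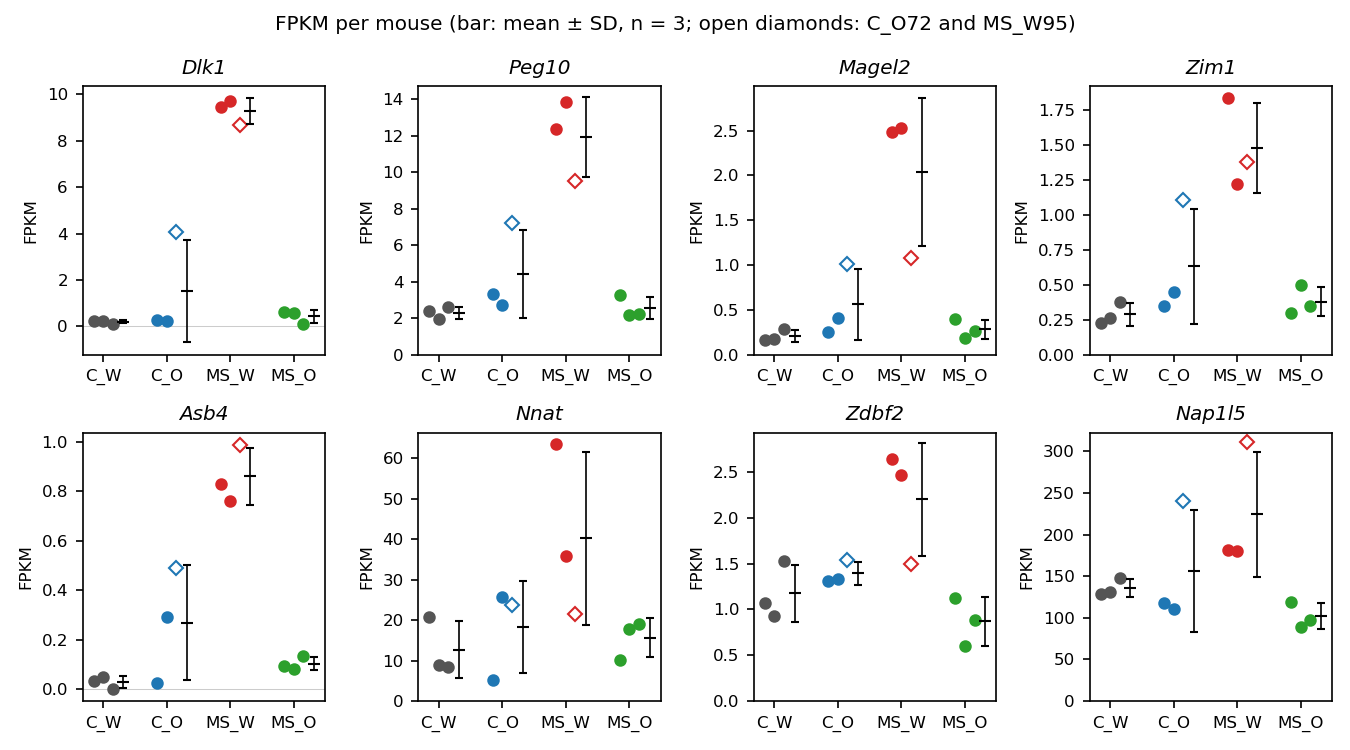
FPKM of 8 genes that were DEGs in C_W vs. MS_W or MS_W vs. MS_O, 1 point per mouse, with the mean and SD of each group (n = 3) as bars and open diamonds for C_O72 and MS_W95. The MS_W mice are highest for Dlk1 (8.67 to 9.72), Peg10, Magel2, Zim1 and Asb4, and the open diamond of C_O72 is the next highest for each of these 5.

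The remaining members gave no DEG in C_W vs. MS_W. In the distal chromosome 7 cluster, Igf2, the paternally expressed growth factor gene, was at 7.44, 2.87 and 3.15 in C_W, at 6.51, 12.1 and 29.7 in C_O, at 6.11, 7.78 and 11.2 in MS_W, and at 4.42, 6.40 and 10.2 in MS_O. H19, its maternally expressed non-coding neighbour, was at most 0.330 outside C_O72, where it was at 0.963. Cdkn1c, a cell cycle inhibitor, was at 6.16 in C_O72 and between 1.27 and 3.13 elsewhere. Igf2, H19 and Cdkn1c were thus each highest in C_O72. Peg13, Kcnq1ot1, Trappc9, Igf2r, Plagl1, Mest, Airn, Usp29 and Ube3a each had an unadjusted p of 0.05 or more. Their groups overlapped except for Trappc9, which encodes a subunit of a vesicle tethering complex and ranged from 7.99 to 8.94 in C_W and from 9.03 to 10.6 in MS_W.

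In the C_O vs. MS_O comparison, which asks for the effect of CUMS under krill oil, 1 of the 36 genes was a DEG. This was Mkrn3, higher in MS_O (ratio 2.84, log2FC 0.62 ± 0.23, adjusted p 0.504 in limma), with MS_O13 inside the range of C_O. This was 2.78% of the members, near the 3.57% of all genes tested, and 2.82% of all genes were higher DEGs. Centring, edgeR, DESeq2 and leaving out C_O15 gave 3 DEGs each, among them Cdkn1c, lower in MS_O. None of the 6 genes that were DEGs under water was a DEG here. Their log2FC were -0.50 ± 0.45 for Dlk1, -0.53 ± 0.27 for Peg10, -0.25 ± 0.22 for Magel2, -0.22 ± 0.16 for Zim1, -0.19 ± 0.12 for Asb4 and 0.02 ± 0.59 for Nnat. C_O72 was the highest C_O library for the first 5 of these genes, and without that library and MS_W95 the log2FC of Dlk1 was 0.18 ± 0.17 and that of Peg10 was -0.19 ± 0.16. Sgce and Zdbf2 were lower in every MS_O mouse than in every C_O mouse, as were 3.29% of all genes. At the adjusted threshold 0 members passed in limma, edgeR or DESeq2, the last with no p for Dlk1 (0.00467% of all genes in limma), and 1 had an unadjusted p under 0.05 in limma, against 8.88% of all genes. Leaving out MS_O46 or MS_O78 ended the DEG call of Mkrn3, and leaving out MS_O13 brought its adjusted p to 0.0469 in limma.

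**Figure D4:**
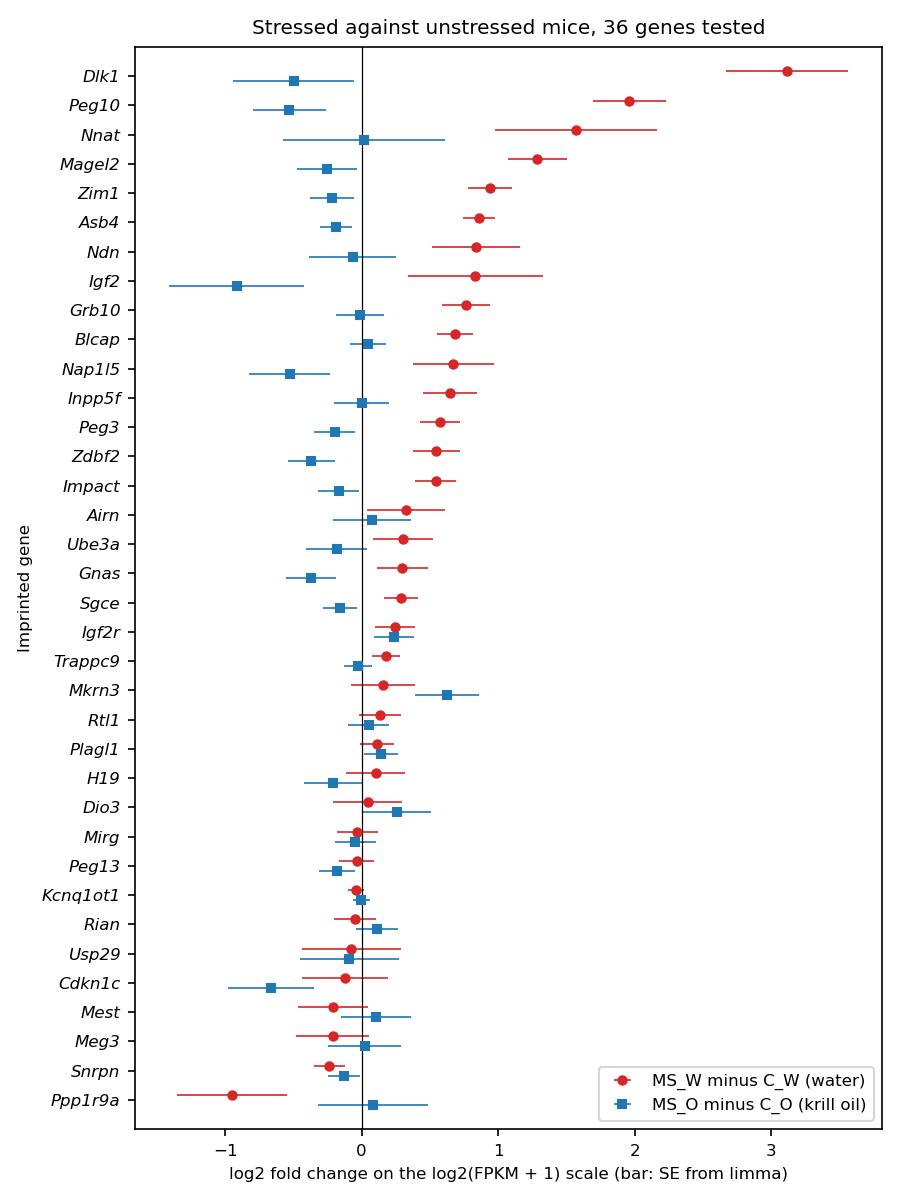
log2FC of the 36 genes tested on the log2(FPKM + 1) scale, with the SE from limma as bars, for MS_W minus C_W (circles) and MS_O minus C_O (squares), which share no library. Dlk1 is at 3.12 under water and -0.50 under krill oil, and Peg10, Magel2, Zim1 and Asb4 lie on opposite sides of 0 in the same way, but without C_O72 and MS_W95 the value of Dlk1 under krill oil is 0.18.

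In the C_W vs. C_O comparison, which asks for the effect of krill oil in unstressed mice, 2 of the 36 genes were DEGs, both higher in C_O. These were Igf2 (ratio 3.59, log2FC 1.49 ± 0.50) and Asb4 (ratio 10.1, log2FC 0.29 ± 0.12), each with an adjusted p of 0.908 in limma. They made up 5.56% of the members, against 1.76% of all genes in either direction and 0.865% higher. At the adjusted threshold 0 members passed in limma, edgeR or DESeq2 (again with no p for Dlk1), as did 0% of all genes in limma, and 3 (Igf2, Peg10 and Asb4) had an unadjusted p under 0.05 in limma, against 3.55%. Peg10 and Sgce were higher in every C_O mouse than in every C_W mouse, as were 4.08% of all genes. The groups overlapped for Igf2 and Asb4, and C_O72 had the highest value. Without C_O72 and MS_W95, neither gene was a DEG (log2FC 0.95 ± 0.42 for Igf2 and 0.16 ± 0.09 for Asb4). The meninges and the choroid plexus are known sites of Igf2 expression in the adult brain. The meningeal markers summed to 40.8 FPKM over 8 markers in C_O72, 20.5 in C_O30 and 10.8 in C_O15, and to between 8.5 and 10.1 in C_W. The summed choroid plexus markers were 4851 in C_O72, 7.71 in C_O30 and 823 in C_O15, and between 5.59 and 847 in C_W. Their part in the result was not tested.

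In the MS_W vs. MS_O comparison, which asks for the effect of krill oil in stressed mice, 7 of the 36 genes were DEGs, all lower in MS_O. Dlk1 (21.9-fold lower), Asb4 (8.4-fold lower), Magel2 (7.17-fold lower), Peg10 (4.65-fold lower) and Zim1 (3.90-fold lower) were joined by Zdbf2 (2.54-fold lower) and Nap1l5 (2.20-fold lower). They made up 19.4% of the members, while 2.81% of all genes were DEGs and 1.39% were lower. This comparison has the MS_W libraries in common with C_W vs. MS_W, so a high value in those 3 mice enters both. The log2FC were -2.87 ± 0.45 for Dlk1, -1.86 ± 0.27 for Peg10 and -0.75 ± 0.12 for Asb4, each with an adjusted p of 0.115 in limma. For Magel2, Zim1, Zdbf2 and Nap1l5 they were -1.20 ± 0.22, -0.84 ± 0.16, -0.77 ± 0.17 and -1.09 ± 0.30, with adjusted p in limma of 0.237, 0.292, 0.376 and 0.655.

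At the adjusted threshold 0 members passed in this comparison in limma (0.00467% of all genes), 12 had an unadjusted p under 0.05, all lower (3.46% of all genes), and edgeR passed 0 and DESeq2, which gave no p for Dlk1, passed 5 (Peg3, Zim1, Magel2, Peg10 and Zdbf2). The groups did not overlap for 15 members, each lower in MS_O, against 7.66% of all genes, and 0 members were higher in every MS_O mouse. Nnat was among the 15 (2.57-fold lower), with an unadjusted p of 0.0645. Dlk1 in MS_O was at 0.424 ± 0.296 (SD, n = 3), against 0.187 ± 0.0655 in C_W, and the range of MS_O included that of C_W.

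The interaction of CUMS and krill oil, the difference between the CUMS effect under krill oil and that under water, was below 0 for each of the 15 members with an unadjusted p under 0.05. This was 41.7% of the members, against 7.23% of all genes in either direction and 3.63% in that direction. The interaction also holds the libraries of C_W vs. MS_W, and high values in the same MS_W mice, or in C_O72, lower it. The interaction was -3.61 ± 0.63 for Dlk1, -2.49 ± 0.38 for Peg10, -1.54 ± 0.31 for Magel2, -1.16 ± 0.23 for Zim1 and -1.04 ± 0.17 for Asb4. The other 10 genes were Igf2, Peg3, Sgce, Blcap, Gnas, Nap1l5, Grb10, Zdbf2, Impact and Inpp5f, with values from -1.75 to -0.45. The smallest adjusted p was 0.221 (Peg10, limma), so 0 members passed the adjusted threshold with all 12 libraries in limma (0% of all genes), as in edgeR, while DESeq2 passed 4 (Zim1, Magel2, Peg10 and Asb4) and gave no p for Dlk1. In limma without C_O72 and MS_W95, 13 members had an unadjusted p under 0.05, all below 0. They made up 36.1% of the members, against 4.32% of all genes in that direction, and did not include Igf2 or Sgce.

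Without C_O72 and MS_W95, members passed the adjusted threshold. In C_W vs. MS_W 7 did so in limma (Dlk1, Zim1, Magel2, Peg10, Asb4, Blcap and Inpp5f), against 1.15% of all genes. The log2FC of Dlk1 was then 3.16 ± 0.17 (adjusted p 0.000386), that of Peg10 2.10 ± 0.16 (0.00144) and that of Magel2 1.54 ± 0.10 (0.000584). In MS_W vs. MS_O 6 passed, all lower in MS_O (Dlk1, Zim1, Magel2, Peg10, Asb4 and Nap1l5), against 0.271% of all genes. The interaction passed for 3 (Dlk1, Magel2 and Peg10), against 0.145%, with -2.98 ± 0.24 for Dlk1 (adjusted p 0.00513, limma). In the other comparisons 0 members passed. These fits hold 2 mice in C_O and MS_W, and the choice of libraries came from values of the same data.

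Markers of brain regions also differed between the groups. Of 18 hypothalamic markers, 9 to 10 were above 0.0001 in each C_W library and 13 to 18 in each MS_W library. In C_O 8 to 14 of these markers were, and in MS_O 11 to 13 of these markers. Their summed FPKM was 14.5, 17.8 and 7.15 in C_W1, C_W64 and C_W70, and 142.6, 131 and 16.5 in MS_W31, MS_W75 and MS_W95. It was 6.68, 25.9 and 23.0 in C_O15, C_O30 and C_O72, and 16.4, 51.2 and 74.1 in MS_O13, MS_O46 and MS_O78. The sum was therefore high in MS_W31 and MS_W75, and in MS_W95 it lay within the range of C_W. The mean log2(FPKM + 1) of the 18 markers, in which single high genes weigh less, was 0.604 in MS_W95 and 0.337 to 0.498 in C_W. This mean was 0.308 to 0.866 in C_O and 0.564 to 0.927 in MS_O.

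Single hypothalamic markers did not share one order. Every MS_W mouse was above every C_W mouse for 8 of the 18, and above all 9 others for 3 (Hcrt, Sim1 and Hmx2). The shares of all genes tested were 16.3% and 1.29%, but the markers, unlike those genes, were not filtered by mean FPKM. In MS_W95 Hcrt was at only 0.144 and Hmx2 at 0.0840. Otp, a regulator of hypothalamic neuron development, was at 1.56, 1.36 and 1.07 in MS_W and 3.24 in C_O72, and at most 0.142 elsewhere. Hmx3, which is expressed in the hypothalamus, was at 0.192 to 0.241 in MS_W and 0.216 in C_O72 and at most 0.0233 elsewhere. Sim1 was listed at 0.0001 in all libraries of C_W, C_O and MS_O and at 0.00600 to 0.194 in MS_W, and Hcrt at 0.0001 in all C_W libraries. Nkx2-1 and Fezf1, in contrast, were at 0.694 to 1.59 in MS_W31 and MS_W75 and at 0.0001 in MS_W95 and C_O72, where Dlk1 was high. Avp, the vasopressin gene, was at 32.3 and 59.3 in MS_W31 and MS_W75, 0.185 in MS_W95 and 7.00 in C_O30. Trh, which encodes thyrotropin-releasing hormone, was highest in MS_O78 (53.0) and MS_O46 (37.4) and at 2.91 in MS_W95, and Crh, which encodes corticotropin-releasing hormone, was highest in MS_O78 (7.99).

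Markers of other regions differed as well. The 8 cortex markers summed to between 340.4 and 393 FPKM in C_W, 49 and 144 in MS_W, 232 and 274 in MS_O, and 36.4 and 390.2 in C_O. The 8 midbrain dopamine markers summed to between 7.67 and 19.6 in C_W and 5.29 and 16.3 in C_O. They summed to between 24.4 and 34.4 in MS_W and 21.7 and 74.3 in MS_O. Th alone was at 56.6 in MS_O46 and 64.9 in MS_O78, whereas Ddc and Slc18a2 were highest in MS_W95 (8.81 and 6.46). The 8 striatum markers summed to between 93.7 and 180.1 in C_W, 133 and 439 in C_O, 151 and 984 in MS_W, and 370.4 and 584 in MS_O. The part of these differences in the values of the imprinted genes was not tested. In brain RNA of this kind, a different part of the brain in the sample, fewer cells of a type and less RNA per cell cannot be told apart.

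**Figure D5:**
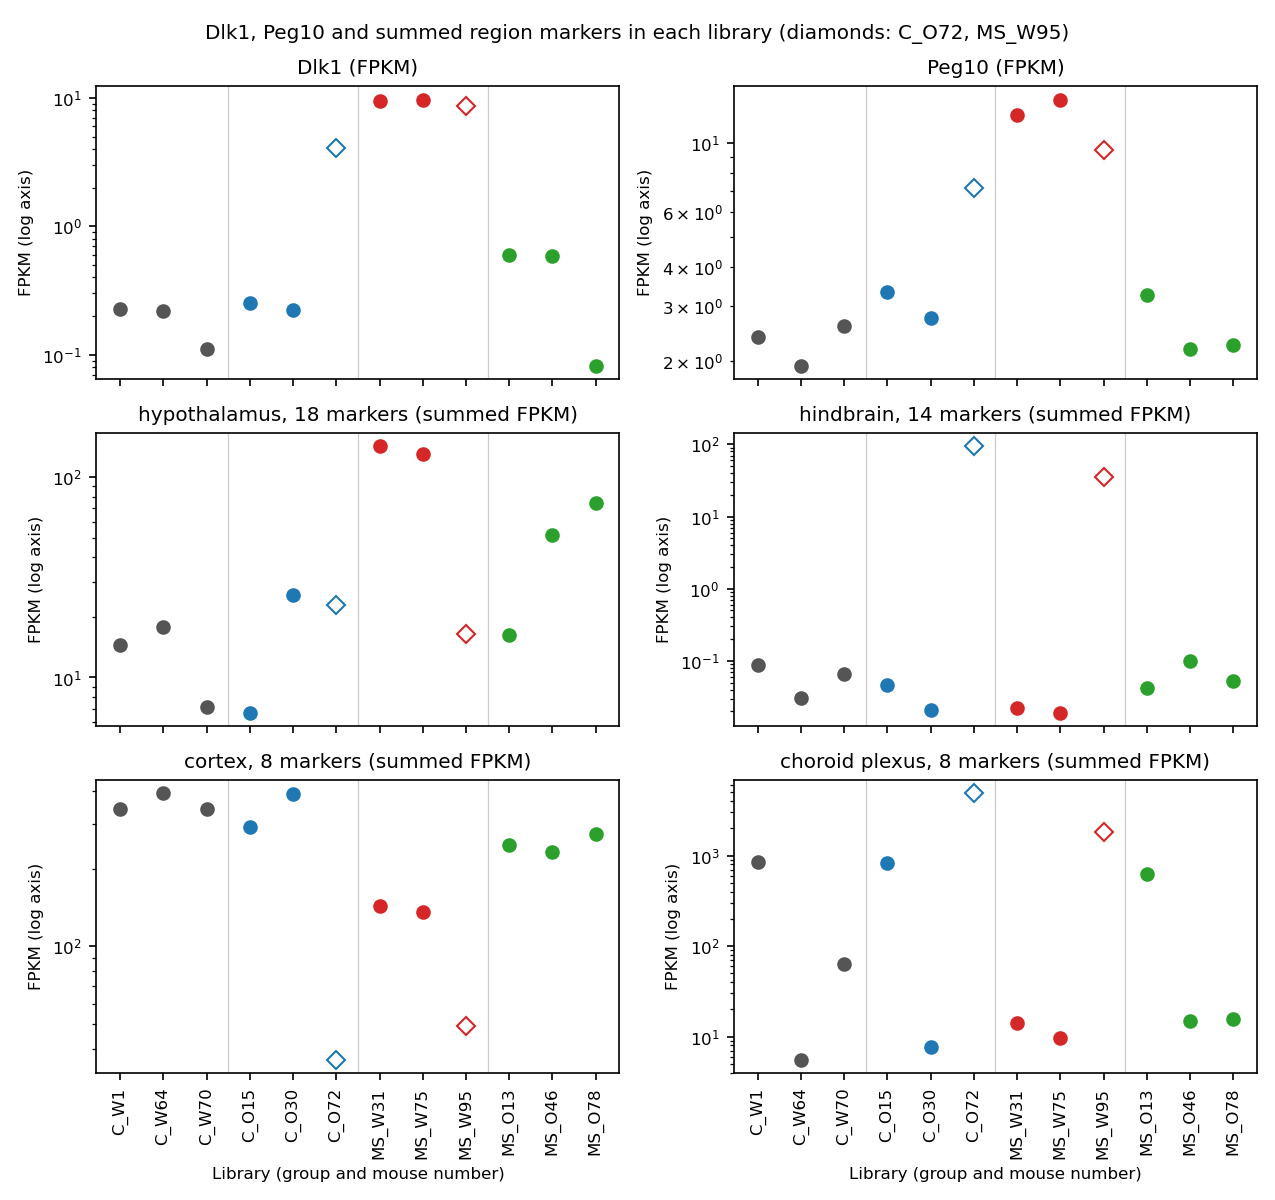
Dlk1, Peg10 and the summed FPKM of 4 lists of region markers in each of the 12 libraries, on log axes, with open diamonds for C_O72 and MS_W95. Dlk1 and Peg10 are high in the 3 MS_W libraries and C_O72, the hypothalamic sum in MS_W31 and MS_W75, and the hindbrain sum only in C_O72 (93.5) and MS_W95 (34.9).

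The called genes were also counted by the parental allele from which they are generally reported to be expressed. These classes are background, as no allele was measured, and need not hold for every gene in the brain. In C_W vs. MS_W, 4 of 21 paternally expressed genes tested were higher DEGs (Dlk1, Peg10, Magel2 and Nnat), 2 of 9 maternally expressed genes (Zim1 and Asb4) and 0 of 6 whose allele depends on tissue or isoform, against 2.5% of all genes tested. The median log2FC was 0.32, -0.03 and 0.48 in these 3 classes. In MS_W vs. MS_O, 5 of the 21 paternally and 2 of the 9 maternally expressed genes were lower DEGs, against 1.39% of all genes. Both parental classes thus held genes that were high in MS_W.

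Overlapping transcripts limit single values. The exons of 9 members overlap those of another gene on the same strand and those of 14 overlap a gene on the opposite strand in release 21 of the GENCODE mouse annotation. Among them are Snrpn, Ube3a, Igf2, Rtl1 and Mest, whereas Dlk1 overlaps none. The libraries were made with a protocol that marks the strand, and whether the expression estimates used it is not given in the sources used here.

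Another 56 imprinted genes, listed from general knowledge, gave a wider view, and 55 of them were in the table and 46 passed the filter. In C_W vs. MS_W, 5 (10.9%) were DEGs, all higher in MS_W (Calcr, Slc22a3, Ddc, Pde10a and Phactr2), against 2.5% of all genes higher. In MS_W vs. MS_O 2 (4.35%) were, both lower in MS_O (Calcr and Ddc), against 1.39% lower. Calcr, the calcitonin receptor gene of the Peg10 domain, was listed at 0.0001 in the 3 C_W mice and was at 1.3, 1.29 and 0.836 in MS_W. It was at 0.0001, 0.0829 and 0.587 in C_O and at 0.0694, 0.0751 and 0.0001 in MS_O, so that, as for Dlk1, every MS_W mouse was above all mice of the other groups, with an adjusted p of 0.0606 in C_W vs. MS_W in limma. In C_O vs. MS_O 4 (8.7%) were DEGs, all higher in MS_O (Dio3os, Kcnq1, Slc22a3 and Th), against 2.82% higher. Ddc and Th are also among the midbrain dopamine markers. In C_W vs. C_O 0 were DEGs and 0 had an unadjusted p under 0.05, against 1.76% and 3.55% of all genes. No gene of this list passed the adjusted threshold in limma with 12 libraries. In C_W vs. MS_W 14 (30.4%) had an unadjusted limma p under 0.05, against 10.5% of all genes. The number was 8 (17.4%) in C_O vs. MS_O, against 8.88%. It was 3 (6.52%) in MS_W vs. MS_O, against 6.09%, and 2 (4.35%) for the interaction, against 7.23%.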

How the data were processed

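Poly(A) RNA of 12 brains, described as whole, was sequenced, 1 library per mouse and 3 mice per group. The submitters' processing notes name cutadapt 1.9, HISAT2 2.0.4, StringTie 1.3.4d, edgeR, DESeq2 and mm10, and the paper's methods name Ballgown for expression. The authors computed the FPKM relative to transcript length and mapped fragments, and genes without an estimate are listed at 0.0001. The estimated count values deposited beside them need not be whole and were rounded. Columns holding the authors' own comparisons were not used.

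The main test was limma 3.58.1 (lmFit, eBayes with trend, R 4.3.3) on log2(FPKM + 1) over 21393 genes, those whose FPKM averaged 0.1 or more, with all 4 groups in the same fit. The p-values were adjusted over all of these genes. The pseudocount of 1 shrinks the log2FC of low genes such as Asb4. Alternatives were a pseudocount of 0.1, no filter, a mean FPKM of at least 1, centring on the median, only the groups compared, edgeR 4.0.16 and DESeq2 1.42.0 on estimated counts, 10 libraries, and leaving out each library. The test was checked on simulated data in which no library stood apart as C_O72 and MS_W95 did. That check therefore does not cover such libraries.

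The 37 genes, the marker lists and the other 56 imprinted genes were chosen with earlier results of these data known. Per-mouse values are given for DEGs, for genes with an interaction p under 0.05 and for the Dlk1-Dio3 domain, group means or ranges for the rest. Genes outside the 37 are named only from the other lists. Coordinates are those of the deposited table (mm10), 27 of 37 with the same start and end in GENCODE release 21. Figures were drawn with matplotlib 3.10.9.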

Additional observations from a re-analysis of the deposited data

Results flagged for a closer look

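Sgce was flagged because stressed and unstressed mice did not overlap, in opposite directions under water and under krill oil. Every MS_W mouse was above every C_W mouse (2.69 ± 0.48 against 2.0 ± 0.15 FPKM, SD, n = 3), and every MS_O mouse was below every C_O mouse (2.24 ± 0.15 against 2.63 ± 0.36). The gaps were small, with MS_W31 at 2.185 against C_W1 at 2.106, and MS_O13 at 2.407 against C_O15 at 2.419. Non-overlap in these directions was found for 16.3% of all genes under water and 3.29% under krill oil. The interaction was -0.45 ± 0.18 on the log2 scale, with an unadjusted p of 0.0274 and an adjusted p of 0.665 in limma, so it did not pass the adjusted threshold. Without C_O72 and MS_W95 it was -0.28, with an unadjusted p of 0.0921. The interaction was below 0 in all 19 alternatives and kept an unadjusted p under 0.05 in 12 of them. No test for single outlying values was run within groups of 3 mice.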

How the results depend on the processing

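The 31 log2FC reported for called genes gave 495 values under the alternatives. None changed sign, 451 stayed past the threshold and 44 did not. With a mean FPKM of at least 1, which removes low genes such as Asb4, Magel2 and Zim1, the DEGs among the members were 3 in C_W vs. MS_W, 0 in C_O vs. MS_O, 1 in C_W vs. C_O and 4 in MS_W vs. MS_O. Fits of only the groups compared gave 0 DEGs in C_O vs. MS_O and 1 in C_W vs. C_O, and members past the adjusted threshold numbered 7 in C_W vs. MS_W and 1 in MS_W vs. MS_O. In C_O vs. MS_O, centring, edgeR and DESeq2 gave 3 DEGs each. In C_W vs. C_O, edgeR gave 5, DESeq2 4 and the 10 libraries 0. Past the adjusted threshold, DESeq2 gave 6 and the 10 libraries 7 in C_W vs. MS_W, and 5 and 6 in MS_W vs. MS_O. The cause of these differences was not tested. The shares of all genes called are not given beside these counts or beside the counts without 1 library below. A changed count is therefore not read as a result about the members.

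Leaving out 1 library at a time, DEGs ranged from 5 to 7 in C_W vs. MS_W, from 0 (without MS_O46 or MS_O78) to 3 (without C_O15) in C_O vs. MS_O, from 0 (without C_O72) to 5 (without C_O15) in C_W vs. C_O, and from 7 to 8 in MS_W vs. MS_O. Members past the adjusted threshold ranged from 0 to 3, 0 to 1, 0 to 0 and 0 to 1 in the same order, with the 3 and the last 1 found without MS_W95. Interactions at an unadjusted p under 0.05 ranged from 11 to 17. Centring moved the split of all DEGs from 603 higher and 161 lower to 386 and 392 in C_O vs. MS_O, and from 185 and 192 to 233 and 148 in C_W vs. C_O. No paired analysis was possible because mouse numbers are not shared between groups. The methods describe the groups as kept in separate cages, so cage and group cannot be told apart. Whether the libraries were batched is not given in the sources used here, and 3 mice per group with few fragments for Asb4, H19 and Dio3 limit the precision.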
